A study of Mus musculus with 2 samples.

Results

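The genes described here are 9 secreted members of the bone morphogenetic protein (BMP) pathway, chosen by name from the 31054 features counted in the early rib callus. They are the ligands Bmp2, Bmp4, Bmp5, Bmp6 and Gdf5, the antagonists Grem1, Nog and Chrd, and the extracellular modulator Bmper. Both libraries come from the callus of mice 8 to 12 weeks old, taken 4 days post injury (dpi) after a resection of 3 mm of rib. The control animals were Sox9:CreER;R26:tdT;Smo f/+ and the Smo cKO animals were Sox9:CreER;R26:tdT;Smo f/f, so both groups carried the Sox9-driven, tamoxifen-inducible Cre, the tdTomato reporter and at least 1 floxed Smo allele. All animals received 3 tamoxifen injections starting 7 days before injury. Cre is active only in cells that expressed Sox9 around the injections, and their descendants inherit the recombined alleles. A library therefore mixes recombined and other cells, and the heterozygous control had itself lost 1 Smo allele in recombined cells. The calluses of 3 animals were pooled for each genotype, which leaves 1 library per genotype and no replicates. The single-cell experiment was done to find out what changes in callus cells when Smoothened, the membrane protein that passes on the Hedgehog (Hh) signal, is removed from this lineage.

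BMPs are dimeric ligands of the TGF-beta superfamily. They bring type I and type II serine/threonine kinase receptors together on the cell surface, the receptors phosphorylate Smad1, Smad5 and Smad9, and these enter the nucleus with Smad4 to switch on targets such as the Id genes. Noggin, chordin and gremlin bind ligands outside the cell and keep them from their receptors, chordin is cut and its ligand set free by the metalloprotease encoded by Bmp1, and BMPER, a relative of chordin, can dampen or promote BMP signaling depending on the context. In bone repair Bmp2 is known for its part in starting fracture healing, and Gdf5 for its part in joint formation.

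The control library held 10747 barcodes with 105367110 unique molecular identifiers (UMIs, each standing for 1 captured transcript), and the Smo cKO library 10512 barcodes with 112700220 UMIs. Cells with at least 200 detected genes and under 10% mitochondrial UMIs were kept, 10057 and 9507 of them, with medians of 8367 and 9092 UMIs. The study's methods also set an upper limit of 2000 genes per cell. It was not applied, since 58.0% and 59.4% of the kept cells were above it, and values under it are given where they change a direction. Of all barcodes, 613 were present in both libraries. In 493 of them (80.4%) the UMI totals differed at least 10-fold between the libraries, and of the 535 that received a class in both, 479 had the same class. Results are therefore also given without these barcodes. Cells were assigned to a class by the marker list they matched best, which gave 6914 control cells (68.7%) and 5771 Smo cKO cells (60.7%) that matched connective tissue best, called connective-gated here. All 12 connective markers were higher inside this gate than outside it in both libraries, which follows largely from the gate being set by these markers. Of its 12685 cells, 159 (1.25%) lay near the limit of the gate. Smo itself was found at 19.1 CPM (UMIs of a gene per 1000000 UMIs of the same cells) in the connective-gated cells of control and 12.3 CPM in those of the Smo cKO library, which gives a log2 ratio of -0.63 (95% counting interval -0.74 to -0.52). Transcripts of a recombined allele can still be counted, since UMIs are read from transcript ends. The reporter had 50 and 128 UMIs in these cells. Every interval given here covers counting error only, with no part for the difference between animals, and no test compares the genotypes. Intervals of levels and ratios take UMIs as independent, so they hold no part for UMIs of a gene that gather in few cells.

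The connective-gated cells of the 2 libraries were not the same mixture. In clusters made without the 9 genes and the other BMP pathway genes, a cluster led by Cxcl5, Gzme, Serpinb2 and Dlk1 held 87 control cells and 949 Smo cKO cells. Most control cells lay in a cluster led by Aldh1a3 and Inhba and in a cluster led by Sfrp1 and Sfrp4 (2309 and 2313 cells). The Smo cKO cells were spread over these (1166 and 1344 cells), a Tnmd and Thbs4 cluster and the Serpinb2 cluster. The Tnmd and Thbs4 cluster held similar numbers in both libraries, 1102 control and 1175 Smo cKO cells. Markers of other cells also differed inside the gate, with summed levels of 7 erythroid markers at 899 and 1287 CPM, of 11 muscle markers at 81.6 and 128 CPM and of 12 macrophage and monocyte markers at 192 and 241 CPM in control and Smo cKO. Their part in the results was not tested, but ratios in cells of clusters named connective are given where they bear on this.

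Promoter sequences are shown for Grem1 and Bmper, the members with the largest differences between the libraries in each direction among those whose counting interval did not include 0. RefSeq windows on GRCm38.p6, from 250 bases before to 50 bases after the RefSeq start, were found for 6 of the 9 genes (Bmp4, Bmp5, Bmp6, Grem1, Chrd and Bmper). The Bmp6 window, 38345466 to 38345765, lies inside the gene as annotated below, which starts at 38345107. A Gli site, GACCACCCA on either strand, is the sequence bound by the transcription factors of the Hh pathway, and it was in none of the 6 windows and in 0.253% of the 32851 windows of the same length. A GC box, GGGCGG on either strand, was in 35.7% of all windows, 3 times in that of Grem1, 4 times in that of Chrd and once each in those of Bmp4, Bmp6 and Bmper, and was not matched in that of Bmp5. Capitals mark the GC boxes in the windows of Grem1 (chr2:113758599-113758898, minus strand) and Bmper (chr9:23222826-23223125, plus strand), written 5′ to 3′.
Grem1: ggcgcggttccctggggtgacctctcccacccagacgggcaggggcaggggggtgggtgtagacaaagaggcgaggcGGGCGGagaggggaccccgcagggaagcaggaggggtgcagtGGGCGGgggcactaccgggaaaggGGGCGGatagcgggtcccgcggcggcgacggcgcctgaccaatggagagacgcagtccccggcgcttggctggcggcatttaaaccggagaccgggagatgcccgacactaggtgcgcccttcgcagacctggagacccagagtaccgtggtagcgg
Bmper: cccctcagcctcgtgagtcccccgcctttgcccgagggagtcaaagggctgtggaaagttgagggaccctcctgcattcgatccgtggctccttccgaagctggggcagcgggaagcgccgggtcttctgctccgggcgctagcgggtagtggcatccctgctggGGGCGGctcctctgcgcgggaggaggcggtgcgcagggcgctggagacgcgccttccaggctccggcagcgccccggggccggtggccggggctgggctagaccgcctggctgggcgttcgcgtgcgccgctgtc

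Connective-gated cells held most UMIs of each of the 9 genes, and 86.1% of all UMIs of kept control cells and 81.4% of those of Smo cKO cells. For Bmper the share was 98.6% in control and 97.7% in Smo cKO, and for Grem1 98.3% and 96.3%. Bmp4 was the gene with the smallest share, 71.4% and 54.5%, followed in Smo cKO by Chrd at 79.3% and Bmp6 at 79.5%. Bmp4 was under the share of all UMIs in both libraries, and Chrd and Bmp6 were under it in Smo cKO. Hematopoietic cells, given here as a comparison for free RNA, held 41 Bmper UMIs (4.76 CPM) in control and 32 (2.83 CPM) in Smo cKO. Their Bmp2 level was 4.76 CPM (41 UMIs) and 4.33 CPM (49 UMIs), and the other 7 genes were at 1.59 CPM or less in them.

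**Figure D1:**
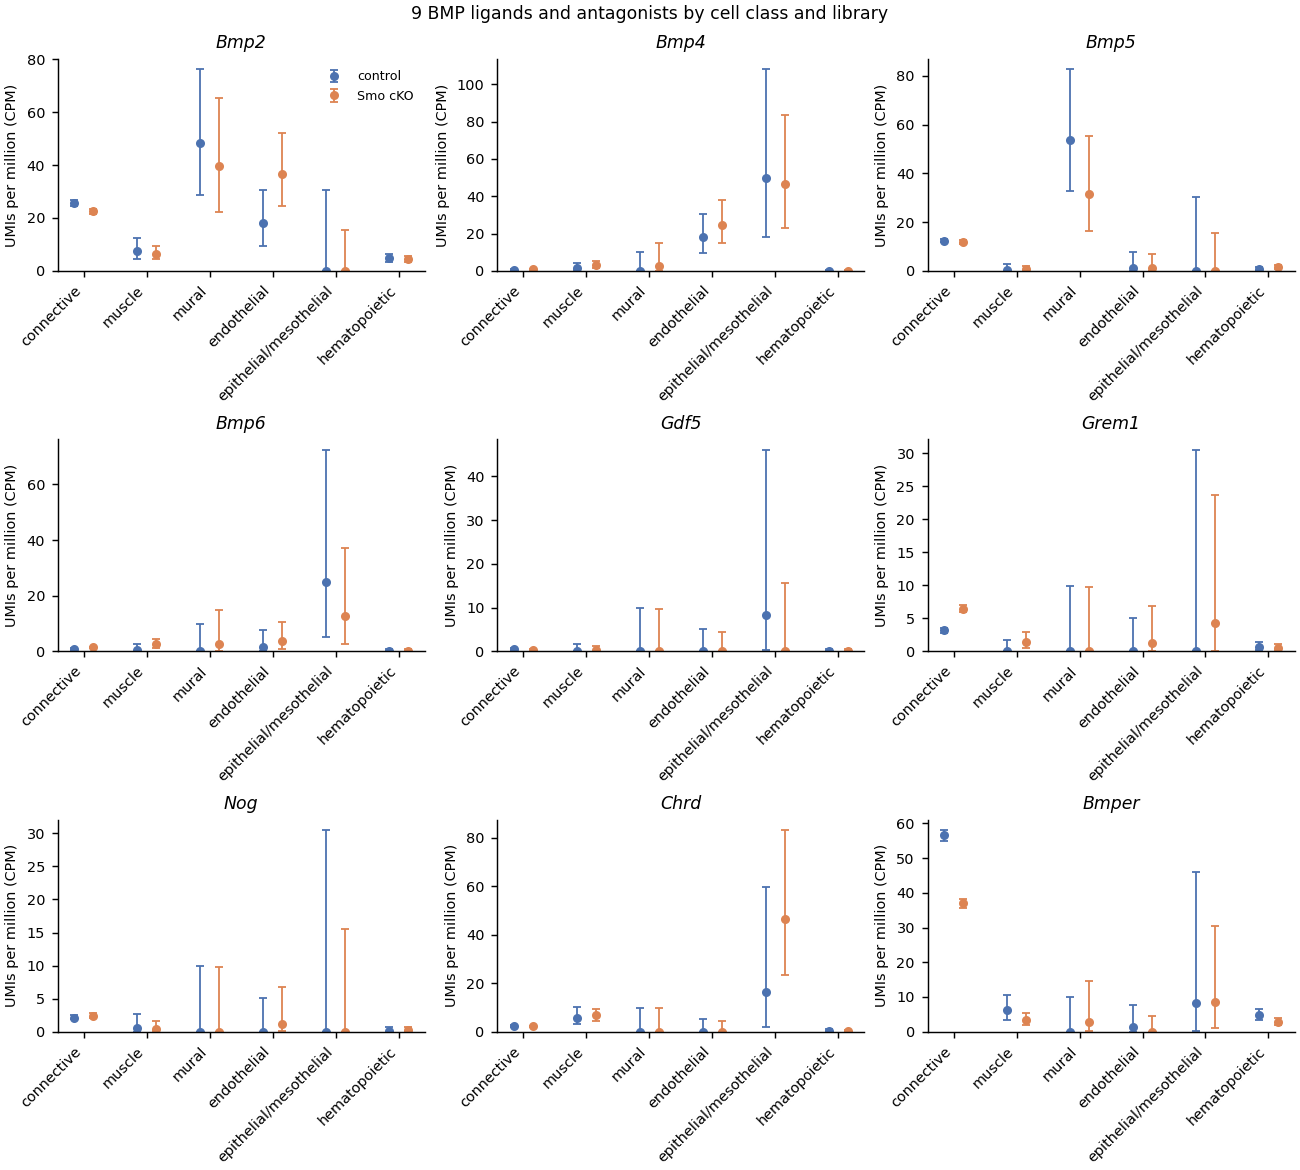
UMIs as CPM (y axis) of each of the 9 genes in 6 cell classes (x axis) of the control (blue) and Smo cKO (orange) library, with 95% Poisson intervals. Bmper, Grem1 and Nog had their UMIs mainly in connective-gated cells, Bmp2 and Bmp5 were also found in mural cells, and Bmp4 in endothelial and in epithelial or mesothelial cells.

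Of the ligands, Bmp2, an inducer of bone formation, stood at 25.6 CPM in control and 22.6 CPM in Smo cKO connective-gated cells. It reached 48.2 CPM (interval 28.6 to 76.2) and 39.7 CPM (22.2 to 65.4) in the 42 and 29 mural cells, the contractile cells of vessel walls. In endothelial cells, 62 and 69 of them, Bmp2 had 13 and 30 UMIs, or 17.9 CPM (9.54 to 30.6) and 36.6 CPM (24.7 to 52.3). The intervals of connective-gated and mural cells were apart in control and overlapped in Smo cKO. In clusters this was the other way round, with mural values of 31.2 CPM (22.1 to 42.8) in control and 43.6 CPM (32.9 to 56.6) in Smo cKO. The control endothelial value in clusters was 3.36 CPM (0.085 to 18.7). These clusters did not hold the same cells as the gates. The cluster named mural (105 and 97 cells) had the endothelial markers Emcn and Flt1 among its leading genes beside Rgs5. The cluster named endothelial (28 and 39 cells) was led by Ccl21a, with Mmrn1, Lyve1 and Flt4.

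Bmp4, a ligand of embryonic patterning and of vessels, had its highest values outside the connective-gated cells. Endothelial cells held 13 and 20 UMIs of it, 17.9 CPM (9.54 to 30.6) in control and 24.4 CPM (14.9 to 37.7) in Smo cKO. This depended on how the class was found. The cluster named endothelial had 3.36 CPM (0.085 to 18.7) in control and no UMI in Smo cKO. The cluster named mural, with endothelial markers among its leading genes, had 9.86 CPM (5.09 to 17.2) and 19.4 CPM (12.6 to 28.7). The 13 and 17 epithelial or mesothelial cells held 6 and 11 UMIs, or 49.7 CPM (18.2 to 108) and 46.5 CPM (23.2 to 83.3). In connective-gated cells Bmp4 was at 0.725 and 0.809 CPM, and no UMI of it was found in macrophages and monocytes. Bmp5 had 20 UMIs in control mural cells and 12 in Smo cKO mural cells, 53.6 CPM (32.7 to 82.8) and 31.7 CPM (16.4 to 55.4), against 12.4 and 11.9 CPM in connective-gated cells. The Bmp5 interval of mural cells lay above that of connective-gated cells in both libraries. In the cluster named mural it did so only in control, at 23.0 CPM (15.3 to 33.2). The value of 17.1 CPM (10.7 to 25.9) of that cluster in Smo cKO overlapped the connective one. With at most 2000 genes per cell no Bmp5 UMI was found in Smo cKO mural cells.

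Chrd, which encodes chordin, was found outside the connective-gated cells in muscle cells, with 12 and 30 UMIs (5.73 CPM, 2.96 to 10.0, and 6.68 CPM, 4.50 to 9.53). Its level in connective-gated cells was 2.33 CPM (2.03 to 2.67) in control and 2.21 CPM (1.91 to 2.53) in Smo cKO, under the muscle interval in both. The 13 and 17 epithelial or mesothelial cells had 2 and 11 Chrd UMIs. In Smo cKO this was 46.5 CPM (23.2 to 83.3), above the muscle and connective intervals, though on only 17 cells. Nog had 1 UMI in control muscle cells, and 2 in muscle and 1 in endothelial cells of the Smo cKO library. Grem1 had no UMI in control endothelial, mural or muscle cells, where 3 counts, the limit set for a count of 0, would be 4.14, 8.04 and 1.43 CPM. It had 6 UMIs in Smo cKO muscle cells. Gdf5 was rare everywhere, with 45 and 29 UMIs in all kept cells.

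In the connective-gated cells all 9 genes had at least 20 UMIs in both libraries together. The interval of the ratio lay above 0 for 2 of them, Bmp6 and Grem1, and below 0 for 2, Bmp2 and Bmper, while it lay above 0 for 27.6% and below 0 for 24.2% of the 15431 genes with as many UMIs. A count of 2 of 9 in each direction is close to this background. Only Grem1 was past 2-fold, and it was higher in Smo cKO, as were 2.54% of the 15431 genes, with 1.94% past 2-fold lower. Where a mean of at least 5 CPM was asked for, Bmp2, Bmp5 and Bmper remained, and none of the 3 was past 2-fold, against 0.814% higher and 0.245% lower of 8972 genes. The median log2 ratio of those 8972 genes was 0.02.

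Grem1, which encodes the BMP antagonist gremlin, had 285 UMIs in control and 580 in Smo cKO connective-gated cells. These were 3.18 CPM (2.82 to 3.57) and 6.43 CPM (5.92 to 6.97), a log2 ratio of 1.02 (0.81 to 1.23), and without the shared barcodes the log2 ratio was 1.07 (0.85 to 1.29). It was 1.02 in cells of clusters named connective. The Smo cKO value was above the control value under all 12 alternative settings, with log2 ratios from 0.82 to 1.28. In cells thinned to 2000 UMIs, a Grem1 UMI was found in 0.64% (0.46% to 0.87%) of those from the control and 1.13% (0.87% to 1.45%) of the others, against 0.13% and 0.099% of hematopoietic cells thinned in the same way. Unthinned, with median depths of 10970 and 13819 UMIs in connective-gated cells and 2677 and 3283 in hematopoietic cells, the shares of connective-gated cells were 2.76% and 6.34%.

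Bmper had the most UMIs of the 9 genes. The control had 5069 and the Smo cKO library 3340 in connective-gated cells, 56.5 and 37.0 CPM, a log2 ratio of -0.61 (-0.67 to -0.55), and -0.61 (-0.68 to -0.54) without the shared barcodes. All 12 alternatives kept the Smo cKO value below the control value, from -0.65 to -0.31. The smallest difference, -0.31, came from giving both libraries the subclass mix of the control. In thinned cells 12.3% (11.5% to 13.1%) of control and 8.44% (7.71% to 9.20%) of Smo cKO connective-gated cells had a Bmper UMI, against 1.30% and 0.789% of hematopoietic cells. Unthinned, the shares were 40.4% and 32.9% of connective-gated cells.

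Bmp2 had 2291 and 2036 UMIs in connective-gated cells, 25.6 CPM (24.5 to 26.6) in control and 22.6 CPM (21.6 to 23.6) in Smo cKO. The log2 ratio was -0.18 (-0.27 to -0.09). This value depended on which cells were counted: it was -0.06 (-0.15 to 0.03) without the shared barcodes and 0.11 (-0.01 to 0.24) without cycling cells. In cells with at most 2000 genes it was 0.76 (0.32 to 1.20) on 97 and 81 UMIs, off 0 in the opposite direction. Cycling connective-gated cells, those with at least 3 of 8 proliferation markers, had 30.7 and 21.8 CPM of Bmp2 and a log2 ratio of -0.49 (-0.61 to -0.37). They were 26.8% of control and 36.0% of Smo cKO connective-gated cells. These shares were taken without thinning and depend on depth, with medians of 10970 and 13819 UMIs. Bmp2 UMIs were uneven over cells, with 43.8% and 43.0% of them in the top 10% of the cells that had any, and with up to 38 and 49 UMIs in 1 cell.

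Bmp6, a ligand best known for the control of iron handling, had 71 and 124 UMIs, 0.792 CPM (0.618 to 0.999) in control and 1.37 CPM (1.14 to 1.64) in Smo cKO. Its log2 ratio was 0.80 (0.36 to 1.24), and 0.77 (0.32 to 1.24) without the shared barcodes. In the Smo cKO library 18 of the 124 UMIs lay in the 93 connective-gated cells with both Serpinb2 and Dlk1, at 9.63 CPM (5.71 to 15.2), and the 8 control cells of this kind had none, which allows up to 21.3 CPM. Without these cells the log2 ratio was 0.60 (0.15 to 1.05).

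For the other 5 genes the interval of the ratio included 0. Bmp5 stood at 12.4 CPM (11.7 to 13.1) and 11.9 CPM (11.2 to 12.7), a log2 ratio of -0.05 (-0.18 to 0.07). It was 0.92 (0.35 to 1.48) in cells with at most 2000 genes and -0.38 (-0.74 to -0.02) in cells thinned to 2000 UMIs, both off 0 and in opposite directions. The thinned value came from a single random draw. A draw of 1000 UMIs per cell went the other way, with 10.3 CPM (67 UMIs) in control and 15.2 CPM (85 UMIs) in Smo cKO. Nog, which encodes noggin, had 191 and 218 UMIs and a log2 ratio of 0.18 (-0.11 to 0.47), and Chrd had 209 and 199 UMIs and a ratio of -0.08 (-0.37 to 0.21). Both depended on the cells counted or on the thinning. Without cycling cells the Nog ratio was 0.70 (0.30 to 1.10), and in cells thinned to 2000 UMIs 0.87 (0.08 to 1.70), both off 0. The thinned Nog value did not recur in a draw of 1000 UMIs per cell. That draw gave 2.76 CPM (18 UMIs) in control and 2.68 CPM (15 UMIs) in Smo cKO. The Chrd ratio was on the other side of 0 under 5 of its 12 alternatives. Bmp4, with 65 and 73 UMIs, had a log2 ratio of 0.16 (-0.34 to 0.66), which was 0.83 (0.18 to 1.503) without cycling cells and 2.21 (0.85 to 3.74) in cells with at most 2000 genes. Gdf5 had 43 UMIs in control and 26 in Smo cKO, with a log2 ratio of -0.74 (-1.50 to 0.00), and without the shared barcodes it was -0.87 (-1.71 to -0.08). With at most 6000 genes per cell the Gdf5 ratio was -0.95 (-1.76 to -0.17).

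**Figure D2:**
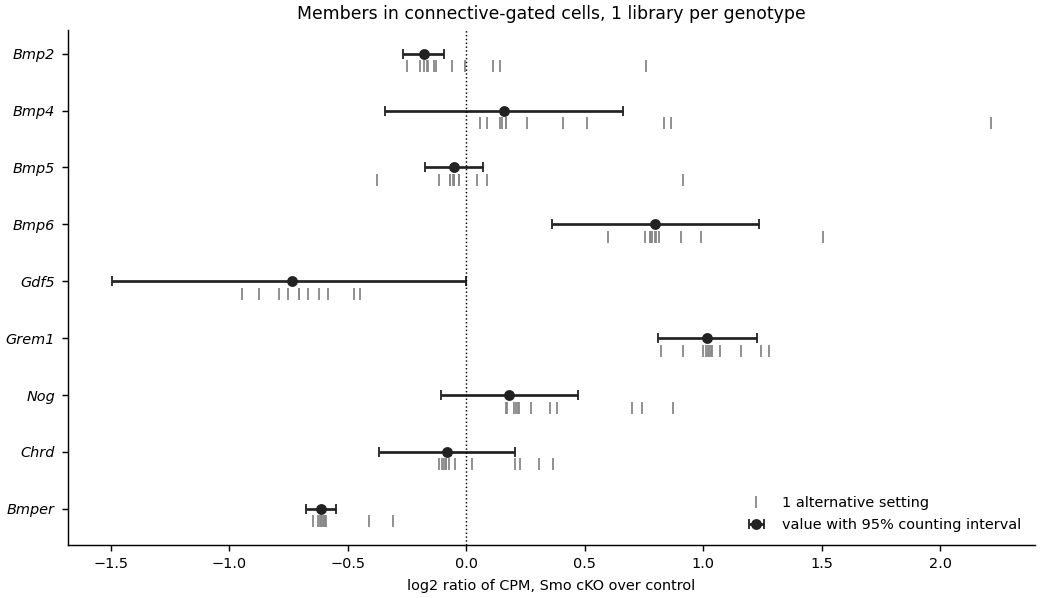
Log2 ratio of CPM, Smo cKO over control (x axis), of the 9 genes (y axis) in connective-gated cells, with 1 library per genotype. Points are the values with 95% counting intervals and ticks are the values under 1 alternative setting each. Grem1 at 1.02 and Bmp6 at 0.80 lay above 0 and Bmper at -0.61 lay below 0 with all of their ticks, and the ticks of Bmp2 fell on both sides of 0.

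The connective-gated cells were split by marker lists into subclasses named by their leading genes. The Sfrp4/Eln/Col14a1 subclass held 2465 control cells (35.7%) and 1163 Smo cKO cells (20.2%), the Tnc/Inhba subclass 2019 and 2026 cells, the Fmod/Acan/Col11a1 subclass, with markers of cartilage-forming cells, 1073 and 981, the Tnmd subclass with tendon markers 428 and 580, and the osteoblast subclass 55 and 59. Another 874 and 962 cells lay between the first 3 subclasses, and 1738 of the 9727 cells assigned to those (17.9%) were close to a limit. The 9 genes had different orders of level across the subclasses.

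Bmper was highest in the Sfrp4/Eln/Col14a1 subclass, at 129 CPM (125 to 134) in control and 106 CPM (99.9 to 112) in Smo cKO. That subclass held 55.9% of the Bmper UMIs of control connective-gated cells and 24.4% of all their UMIs, and 37.8% and 13.2% in Smo cKO. The other values were 34.8 and 32.6 CPM in the Tnmd subclass, 28.9 and 30.7 CPM in the Fmod/Acan/Col11a1 subclass, 26.7 and 19.0 CPM in the Tnc/Inhba subclass and 15.8 and 21.4 CPM in the osteoblast subclass. The intervals of the Tnmd and Fmod/Acan/Col11a1 subclasses overlapped in both libraries. In control the Tnc/Inhba interval overlapped those of the Fmod/Acan/Col11a1 and osteoblast subclasses. In Smo cKO the osteoblast interval overlapped those of the Tnmd, Fmod/Acan/Col11a1 and Tnc/Inhba subclasses. The order below the Sfrp4/Eln/Col14a1 subclass was therefore not fully resolved. The log2 ratio was -0.29 (-0.39 to -0.20) in the Sfrp4/Eln/Col14a1 and -0.49 (-0.63 to -0.35) in the Tnc/Inhba subclass, both nearer to 0 than the -0.61 of all connective-gated cells. In cells with at most 2000 genes the ratio in the Sfrp4/Eln/Col14a1 subclass was 0.16. In the Tnmd and Fmod/Acan/Col11a1 subclasses it was -0.10 (-0.32 to 0.13) and 0.09 (-0.12 to 0.30). These last 2 values depended on the cells counted: without the shared barcodes the Tnmd ratio was -0.30 (-0.56 to -0.04), and with a stricter limit between subclasses the Fmod/Acan/Col11a1 ratio was 0.34 (0.08 to 0.60).

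Bmp2 was highest in the osteoblast subclass, at 84.8 CPM (67.8 to 105) and 89.0 CPM (72.4 to 108), followed by the Fmod/Acan/Col11a1 subclass at 60.4 CPM (56.3 to 64.7) and 50.4 CPM (46.5 to 54.5), and lowest in the Sfrp4/Eln/Col14a1 subclass, at 6.03 CPM (5.05 to 7.15) and 8.04 CPM (6.51 to 9.82). The Tnmd and Tnc/Inhba subclasses lay between, at 27.1 and 20.3 CPM and at 21.9 and 16.6 CPM. The Bmp2 ratio was below 0 in the Tnc/Inhba (-0.39, -0.55 to -0.24), Fmod/Acan/Col11a1 (-0.26, -0.41 to -0.11) and Tnmd (-0.42, -0.68 to -0.15) subclasses and above 0 in the Sfrp4/Eln/Col14a1 subclass (0.41, 0.02 to 0.80). With a stricter limit between subclasses the Sfrp4/Eln/Col14a1 value was 0.37 (-0.06 to 0.79) and the Fmod/Acan/Col11a1 value -0.08 (-0.26 to 0.10), and both intervals included 0. Without the shared barcodes the ratios of the Fmod/Acan/Col11a1 and Tnmd subclasses came to -0.12 (-0.28 to 0.04) and -0.26 (-0.56 to 0.04), and with at most 2000 genes per cell that of the Fmod/Acan/Col11a1 subclass was 0.48.

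Bmp5 shared the low level in the Sfrp4/Eln/Col14a1 subclass, 5.58 CPM (4.63 to 6.66) and 7.20 CPM (5.76 to 8.90). Its levels in the Fmod/Acan/Col11a1 subclass were 20.7 CPM (18.3 to 23.3) and 16.6 CPM (14.4 to 19.0), and in the Tnmd subclass 19.6 CPM (16.7 to 22.8) and 13.4 CPM (11.4 to 15.6). The ratios of these 2 subclasses were -0.32 (-0.58 to -0.05) and -0.55 (-0.87 to -0.22), and without the shared barcodes -0.26 (-0.53 to 0.02) and -0.58 (-0.95 to -0.21). The Fmod/Acan/Col11a1 value was -0.28 (-0.58 to 0.02) with a stricter limit between subclasses and 0.16 with at most 2000 genes per cell. In the Sfrp4/Eln/Col14a1 subclass the Bmp5 ratio was 0.37 (-0.05 to 0.78), and 0.43 (0.01 to 0.84) without the shared barcodes.

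Chrd was at 4.52 CPM (3.68 to 5.51) and 6.11 CPM (4.79 to 7.69) in the Sfrp4/Eln/Col14a1 subclass, which held 47.4% and 36.7% of its connective UMIs. This was its highest subclass in the control, while in Smo cKO the osteoblast subclass had 6.23 CPM (2.51 to 12.8) on 7 UMIs. The Chrd ratio in the Sfrp4/Eln/Col14a1 subclass was 0.43 (-0.02 to 0.89), and 0.47 (0.01 to 0.93) without the shared barcodes.

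Grem1 was higher in Smo cKO in the 4 larger subclasses, with the interval of the ratio above 0 in 3 of them. In the Sfrp4/Eln/Col14a1 subclass it had 82 and 139 UMIs, 3.75 CPM (2.98 to 4.65) against 11.6 CPM (9.79 to 13.7), a log2 ratio of 1.64 (1.23 to 2.05), or 3.11-fold. The ratio was 1.38 (0.73 to 2.08) in the Tnmd subclass and 0.91 (0.48 to 1.36) in the Fmod/Acan/Col11a1 subclass, and in the Tnc/Inhba subclass, with 68 and 95 UMIs, it was 0.30 (-0.17 to 0.77). Left without the shared barcodes, these 4 ratios were 1.60, 1.45, 0.96 and 0.38. In the control the Fmod/Acan/Col11a1 subclass had the highest Grem1 level, 5.22 CPM (4.06 to 6.60). In Smo cKO the Sfrp4/Eln/Col14a1 subclass had the highest, with the Fmod/Acan/Col11a1 subclass at 9.83 CPM (8.17 to 11.7). The intervals of these 2 subclasses overlapped in both libraries, so their order was not resolved in either.

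Nog went in opposite directions. In the Sfrp4/Eln/Col14a1 subclass it had 37 UMIs in control and 63 in Smo cKO, 1.69 CPM (1.19 to 2.33) and 5.28 CPM (4.05 to 6.75), a log2 ratio of 1.64 (1.03 to 2.27). In the Tnc/Inhba subclass it had 106 and 68 UMIs, 3.13 CPM (2.56 to 3.78) and 1.77 CPM (1.37 to 2.24), a log2 ratio of -0.82 (-1.28 to -0.37). The shared barcodes made little difference, with 1.66 and -0.71 without them. Of the connective Nog UMIs of the control, 55.5% lay in the Tnc/Inhba subclass, and of those of the Smo cKO library 31.2%. No Nog UMI was found in the osteoblast subclass, where 3 counts would be 2.96 CPM in control and 2.67 CPM in Smo cKO.

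Bmp4 in the Sfrp4/Eln/Col14a1 subclass had 21 and 24 UMIs and a ratio of 1.07 (0.16 to 1.98), and Bmp6 in the Tnc/Inhba subclass had 22 and 47 UMIs and a ratio of 0.91 (0.15 to 1.71). Gdf5 had at most 16 UMIs in any subclass of a library. Counted over the genes with 20 UMIs in a subclass, intervals lay above 0 for 4 of 8 members in the Sfrp4/Eln/Col14a1 subclass (Bmp2, Bmp4, Grem1 and Nog) and below 0 for 1 (Bmper), where the shares of all genes were 29.4% and 12.5%. In the Tnc/Inhba subclass they were above 0 for 1 of 8 and below 0 for 3 (Bmp2, Nog and Bmper), with 19.0% and 21.4% of all genes. For the Fmod/Acan/Col11a1 subclass the counts were 1 and 2 of 9, with 14.2% of all genes above and 14.2% below 0, and for the Tnmd subclass 1 and 2 of 7, with 12.4% and 11.0%. In each case the 1 was Grem1 and the 2 were Bmp2 and Bmp5.

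**Figure D3:**
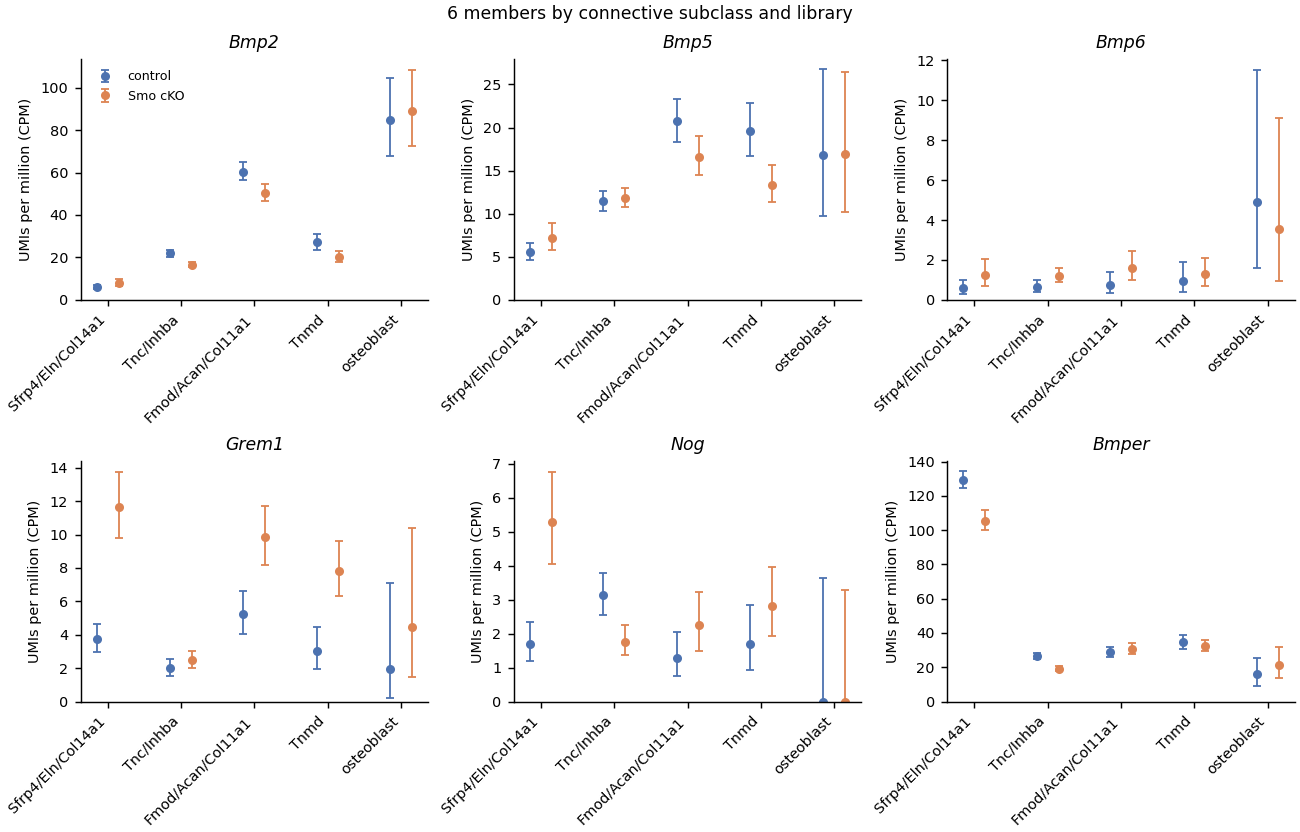
UMIs as CPM (y axis) of 6 of the 9 genes in 5 connective subclasses (x axis) of the control (blue) and Smo cKO (orange) library, with 95% Poisson intervals. Bmper was highest in the Sfrp4/Eln/Col14a1 subclass, where Bmp2 and Bmp5 were lowest, and Nog was higher there and lower in the Tnc/Inhba subclass of the Smo cKO library.

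The clusters, made without these genes, gave a second view of the same cells. In the Sfrp1 and Sfrp4 cluster Grem1 was at 4.24 CPM in control and 15.3 CPM in Smo cKO, a log2 ratio of 1.85 (1.51 to 2.20), and in the Tnmd and Thbs4 cluster the ratio was 0.95 (0.50 to 1.42). In the Aldh1a3 and Inhba cluster it was 0.82 (0.29 to 1.35), off 0 unlike in the Tnc/Inhba subclass. The clusters led by Ibsp and by Ccl8 had Grem1 ratios of 0.48 (-0.27 to 1.23) and -0.46 (-1.58 to 0.62). The Serpinb2 cluster, almost all Smo cKO, had 27 Grem1 UMIs in its Smo cKO cells, 1.43 CPM (0.944 to 2.08), which is below the 6.43 CPM of all Smo cKO connective-gated cells. Bmper was lower in the Smo cKO cells of 5 of the 6 connective clusters, with log2 ratios from -1.43 to -0.34. The exception was the cluster led by Ibsp and Bglap, at 6.22 and 8.07 CPM, where the ratio was 0.37 (-0.20 to 0.95). In the Ibsp cluster Bmp2 had its highest level of the 6, where it was among the leading genes, 140 CPM in control and 129 CPM in Smo cKO. The Bmp2 ratio was above 0 in the Aldh1a3 and Inhba cluster (0.23, 0.04 to 0.43), unlike in the Tnc/Inhba subclass. Its interval included 0 in the Sfrp1 and Sfrp4 cluster (0.06, -0.33 to 0.45) and the Tnmd and Thbs4 cluster (0.14, -0.13 to 0.41). So it did in the Ibsp cluster (-0.12, -0.24 to 0.01) and the Serpinb2 cluster (-0.45, -1.02 to 0.18). The Bmp2 ratio was below 0 in a cluster led by Ccl8 and Prg4 (-0.82, -1.33 to -0.33). That cluster (262 and 222 cells) also had the macrophage marker Mrc1 and, with Ccl8, Pf4 among its leading genes, both of which led a macrophage cluster. Doublets were not tested for, so its Bmp2 and Bmper values may not be those of connective cells alone. Nog ratios were 1.46 (0.88 to 2.07) in the Sfrp1 and Sfrp4 cluster, 0.99 (0.22 to 1.80) in the Tnmd and Thbs4 cluster and -0.68 (-1.28 to -0.11) in the Aldh1a3 and Inhba cluster. The Serpinb2 cluster stood at -2.40 (-3.49 to -1.18) for Nog, on 10 and 27 UMIs.

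**Figure D4:**
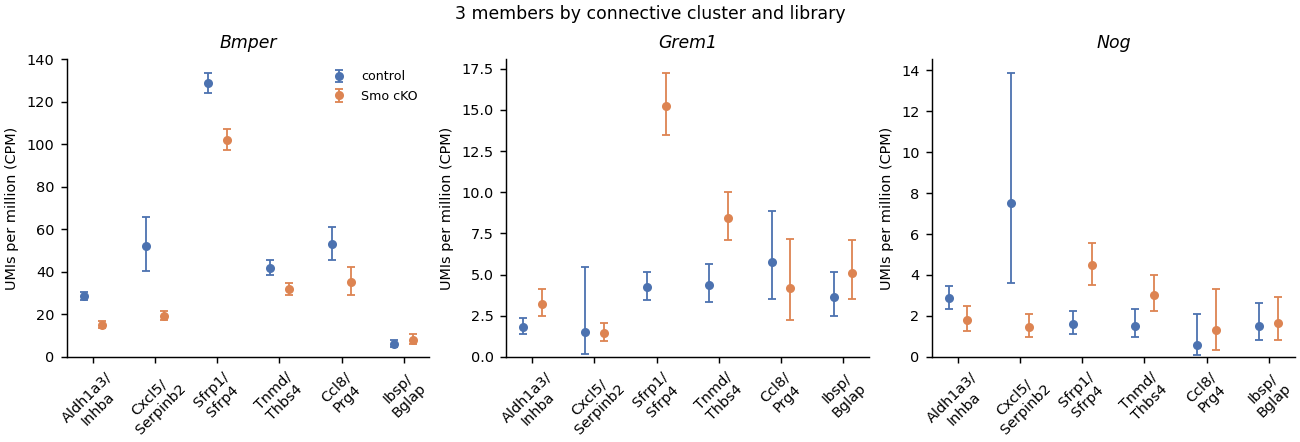
UMIs as CPM (y axis) of Bmper, Grem1 and Nog in 6 connective clusters named by 2 of their leading genes (x axis), in the control (blue) and Smo cKO (orange) library, with 95% Poisson intervals. Bmper was lower in the Smo cKO cells of all clusters but the Ibsp cluster, and Grem1 reached 15.3 CPM in the Sfrp1 and Sfrp4 cluster.

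Whether the members were found in the same cells was described after thinning. Among connective-gated cells thinned to 5000 UMIs, 13.6% (10.5% to 17.3%) of the 411 control cells with a Bmp2 UMI also had a Bmper UMI, against 26.2% (25.1% to 27.4%) of those without. The shares in Smo cKO were 10.5% (7.46% to 14.2%) and 16.0% (15.0% to 17.1%). Bmp2 was itself found in 13.9% (10.4% to 18.2%) of the control cells with Bmp5 and in 6.48% (5.85% to 7.15%) of those without, and in 12.1% (8.56% to 16.6%) and 6.46% (5.78% to 7.19%) in Smo cKO. Of the 134 Smo cKO cells with Grem1, 25.4% (18.3% to 33.6%) had Bmper, above the 15.4% (14.4% to 16.4%) of the others, whereas in the control the 24.1% (15.1% to 35.0%) of 79 cells did not differ from 25.4% beyond the interval. These cells are not independent samples and share their library.

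The genes most like each member were sought by Pearson correlation of ln(1 + CPM) over 24 profiles of classes and subclasses by library, among 12492 genes. For Bmper they were Tmeff2 (0.93), Col14a1 (0.92), which is one of the markers that defined a subclass, and Has1 (0.91), a hyaluronan synthase. Nupr1 (0.93), Mxd3 (0.91) and Shf (0.89) were most like Bmp2, and Sec16b (0.91), Kctd11 (0.89) and Sec61g (0.89) most like Bmp5. The genes nearest to Bmp4 were Arhgef15 (0.95), Ctnnal1 (0.94) and Vwa1 (0.94), and those nearest to Bmp6 were Gm26735 (0.91), Etl4 (0.86) and Fign (0.85). Grem1 was nearest to Col8a2 (0.91), Cpxm2 (0.90) and Sh3d21 (0.90), Chrd to Klhl33 (0.89), Klhl13 (0.88) and Cryab (0.87), and Nog, with weaker likeness, to Wnt2 (0.78), Eef1akmt3 (0.76) and Gm16006 (0.75). The profiles share 2 libraries, and Gdf5 had too few UMIs for this comparison. Groups of fewer than 50 cells gave no profile. Mural cells, with high Bmp5, and epithelial or mesothelial cells, with high Bmp4, were therefore left out.

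The other BMP pathway genes were described from a list of 53, of which 27 reached 5 CPM in connective-gated cells. None of the 27 was past 2-fold in either direction, 2 (Id3 and Smad7) were past 1.5-fold higher and 1 (Fst) past 1.5-fold lower in Smo cKO, against 2.15% and 1.42% of the 8972 genes. The median log2 ratio of the 27 was -0.08. Of the 9 other ligands listed, Bmp7 among them, none reached 5 CPM.

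The 5 targets among them had log2 ratios above 0 with a median of 0.47, and 53.3% of the 8972 genes were above 0 as well. The cluster mixture and the erythroid, muscle and macrophage markers given above also differed between these cells, and their part in these ratios was not tested. Id3, an inhibitor of DNA binding that BMP signaling switches on, stood at 290 CPM in control and 515 CPM in Smo cKO, a ratio of 0.83 (0.81 to 0.85). Id1, at 41.3 and 59.9 CPM, had a ratio of 0.54 (0.48 to 0.60), Id2 0.47 (0.42 to 0.52), and Atoh8, a transcription factor, 0.27 (0.15 to 0.39), while Bambi, a pseudoreceptor, was at 0.07 (-0.04 to 0.18). The Id genes also respond to other signals, which these counts do not separate. Among 6 Smad proteins and regulators Smad7, an inhibitory Smad, stood at 49.7 and 74.7 CPM, a ratio of 0.59 (0.53 to 0.64). Smad1 (-0.08, -0.13 to -0.03) and Smad5 (-0.16, -0.24 to -0.08), which carry the BMP signal, were below 0. So were the common Smad4 (-0.17) and the ubiquitin ligases Smurf1 (-0.20) and Smurf2 (-0.38).

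Of 9 receptors and co-receptors at this level, Eng, which encodes endoglin, had the highest log2 ratio, 0.41 (0.33 to 0.50), with Bmpr1b (0.14) and Acvrl1 (0.12) after it. The lowest were the activin receptor Acvr2a (-0.37, -0.55 to -0.20), the type II receptor Bmpr2 (-0.37, -0.43 to -0.31) and Acvr1 (-0.30). Of the 6 extracellular modulators, Fst, which encodes follistatin, a binder of activin and some BMPs, stood at 53.0 and 27.2 CPM, with a ratio of -0.97 (-1.04 to -0.90). Nbl1 was at -0.30 and Twsg1 at -0.24, Crim1 at -0.06 and Fstl3 at 0.19. Bmp1, the chordin protease, was at 281 and 227 CPM, a ratio of -0.31 (-0.33 to -0.28).

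**Figure D5:**
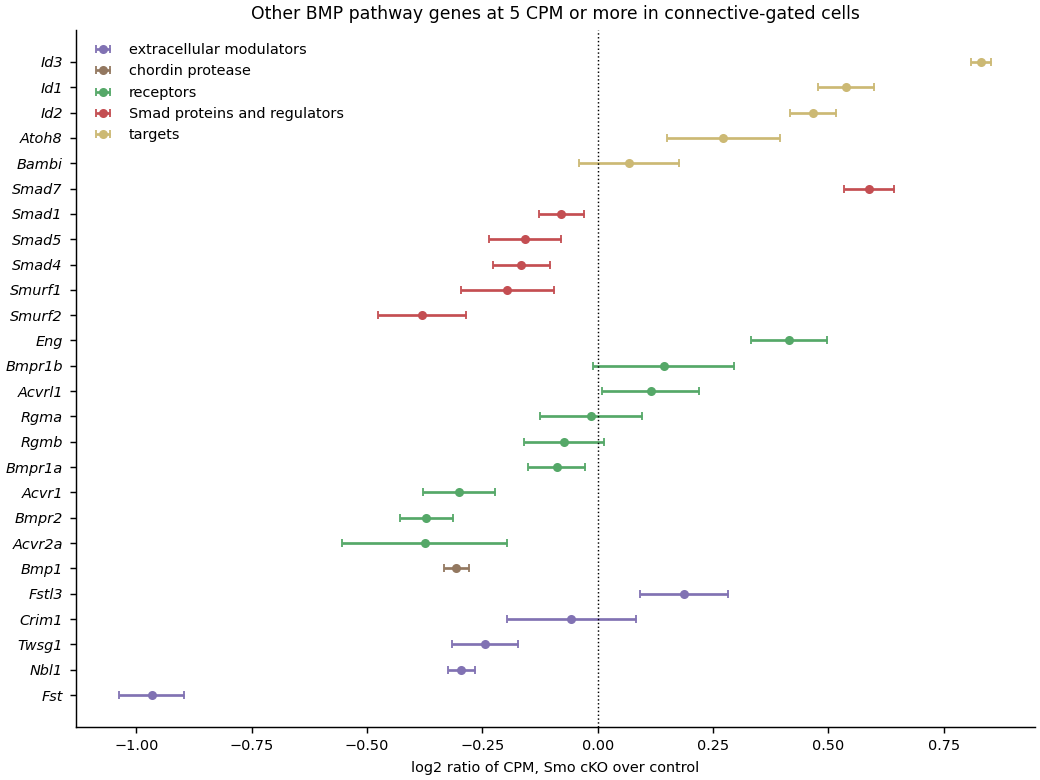
Log2 ratio of CPM, Smo cKO over control (x axis), with 95% counting intervals, of the other BMP pathway genes at 5 CPM or more in connective-gated cells (y axis), colored by role, with 1 of the 27 not shown. Id3 and Smad7 had the highest values and Fst the lowest.

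The 9 genes lie on 6 chromosomes of GRCm38, all annotated as protein coding in GENCODE vM21. Bmp2 (ENSMUSG00000027358) is at 133552159 to 133562885, Grem1 (ENSMUSG00000074934) at 113746164 to 113758646 and Gdf5 (ENSMUSG00000038259) at 155941023 to 155945367 of chromosome 2. Bmper (ENSMUSG00000031963) is at 23223076 to 23485200 and Bmp5 (ENSMUSG00000032179) at 75775364 to 75900310 of chromosome 9. Nog (ENSMUSG00000048616) is on chromosome 11, 89300638 to 89302332, Bmp6 (ENSMUSG00000039004) on chromosome 13, 38345107 to 38500302, Bmp4 (ENSMUSG00000021835) on chromosome 14, 46383520 to 46390669, and Chrd (ENSMUSG00000006958) on chromosome 16, 20733127 to 20742384. Counts are of transcript ends, so levels were compared between cells for a gene and not between genes.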

How the data were processed

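Droplet single-cell RNA sequencing of the rib callus at 4 dpi gave 1 library of 3 pooled animals per genotype. The authors deposited raw UMI counts per gene and barcode, aligned to mm10, and per the labels Cell Ranger 3.0.2 was named in the submitters' processing notes. The levels, ratios and classes were computed from these counts with Python 3.11.15, numpy 2.4.6, scipy 1.17.1, pandas 2.3.3 and scanpy 1.11.5 (igraph 0.11.9), and plots with matplotlib 3.10.9. Cells with at least 200 genes and under 10% of UMIs from 13 mitochondrial genes were kept, with no upper limit on genes. No doublet caller was run, and a limit of 6000 genes was an alternative.

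Each cell took the class whose markers it matched best, with at least 3 of them and a lead of 0.05 in mean scaled marker level. This scoring was set after the files were seen. Subclasses used a lead of 0.25 SD between standardized scores, except that osteoblast and tendon cells needed at least 3 of their markers. Tendon cells also needed a Tnmd UMI. Leiden clusters (2000 variable genes, 30 components, 20 neighbors, resolution 0.6) left out the members and the pathway genes. CPM is the summed UMIs of a gene per 1000000 UMIs of the cells, with exact Poisson intervals at 95%. Shares have Clopper-Pearson intervals, ratios have exact intervals for 2 Poisson counts, and a count of 0 was limited at 3 counts. With 1 library per genotype no test was possible. All 9 genes were named, with the 3 most similar genes of each and the listed pathway genes at 5 CPM or more. The members and lists were chosen with earlier results of these data known. The ratio and its interval were tested on simulated Poisson counts, which hold no gathering of UMIs in few cells. The classes, clusters and thinning were not tested in this way. Alternatives changed the cell filter, the classes, the thinning, the scaling and the averaging. Those without shared barcodes, and without cells holding both Serpinb2 and Dlk1, were added after seeing the data. Of the pathway genes, 1 is counted in the totals and its values are not reported here.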

Additional observations from a re-analysis of the deposited data

Results flagged for a closer look

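The log2 ratios of Bmp2, Smo cKO over control, lay on different sides of 0 in the connective subclasses, with 0.41 in the Sfrp4/Eln/Col14a1 subclass, -0.39 in the Tnc/Inhba subclass, -0.26 in the Fmod/Acan/Col11a1 subclass and -0.42 in the Tnmd subclass. Nog had 1.64 in the Sfrp4/Eln/Col14a1 subclass and -0.82 in the Tnc/Inhba subclass. In each the counting interval lay off 0. For Bmp2 this did not hold with a stricter limit between subclasses, which gave 0.37 (-0.06 to 0.79) and -0.08 (-0.26 to 0.10) in the Sfrp4/Eln/Col14a1 and Fmod/Acan/Col11a1 subclasses, nor in the Fmod/Acan/Col11a1 and Tnmd subclasses without the shared barcodes, at -0.12 (-0.28 to 0.04) and -0.26 (-0.56 to 0.04). The clusters did not show the same Bmp2 directions. The ratio was 0.06 (-0.33 to 0.45) in the Sfrp1 and Sfrp4 cluster and 0.23 (0.04 to 0.43) in the Aldh1a3 and Inhba cluster. It was 0.14 (-0.13 to 0.41) in the Tnmd and Thbs4 cluster and -0.12 (-0.24 to 0.01) in the Ibsp cluster. With 1 library per genotype the difference between subclasses was not tested.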

How the results depend on the processing

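No paired analysis was possible because each genotype had 1 library. Log2 ratios of Bmp4, Bmp6, Gdf5, Grem1, Nog and Bmper kept their direction under the 12 alternatives counted here (11 for Gdf5). Those of Bmp2, Bmp5 and Chrd did not (3, 3 and 5 of 12 alternatives). Thinning to 1000 UMIs was not among these alternatives. In that draw Bmp4 (0.765 and 0.716 CPM, on 5 and 4 UMIs) and Nog (2.76 and 2.68 CPM) were lower in Smo cKO. Bmp5 was higher there (10.3 and 15.2 CPM). Of 107 alternative values of the 9 ratios in connective-gated cells, 85 stayed within the counting interval of the reported value and 11 had the opposite sign. With at most 2000 genes per cell, the log2 ratios were 0.76 for Bmp2, 2.21 for Bmp4, 0.92 for Bmp5, 1.505 for Bmp6, 1.24 for Grem1, 0.74 for Nog, 0.37 for Chrd and -0.41 for Bmper. In subclasses that limit gave 0.48 for Bmp2 and 0.16 for Bmp5 (Fmod/Acan/Col11a1) and 0.16 for Bmper (Sfrp4/Eln/Col14a1). It put 8 pathway genes past 1.5-fold higher, 3 lower, 4 past 2-fold higher and 2 lower, and of all genes 324 past 2-fold higher (73 in the main setting) and 93 lower (22). Without cycling cells the ratios were 0.11 for Bmp2, 0.83 for Bmp4, 1.28 for Grem1 and 0.70 for Nog. Thinning to 2000 UMIs gave 0.14 for Bmp2, 0.87 for Bmp4, -0.38 for Bmp5, 0.87 for Nog and 0.31 for Chrd. The mean of per-cell CPM gave -0.0064 for Bmp2, 0.088 for Bmp5 and 0.23 for Chrd. Without shared barcodes Bmp2 was at -0.060, and with the control subclass mix Bmper was at -0.31. Without the 5 CPM limit 5 pathway genes were past 1.5-fold higher and 2 lower, and at 50 CPM 15 genes were past 2-fold higher and 3 lower. The cause of these changes was not tested. Depth limits Gdf5, Bmp4 and Bmp6 most.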
